A study of Caenorhabditis elegans with 4 samples.

Results

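The regions described here are those called on chromosome II of Caenorhabditis elegans in an anti-GFP ChIP-seq experiment on the tagged protein F23B12.7. They were chosen by chromosome alone, whatever their q-value, width or replicate support. The combined list of the series held 482 of its 2621 regions on chromosome II, the list of ChIP replicate 1 held 206 of 1038, and the list of ChIP replicate 2 held 59 of 310. In all 3 lists the left end of the chromosome was more thinly covered than the centre and the right arm, which had about the same density. On the other 5 chromosomes, pooled, the left and right ends carried about equal numbers of regions.

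As background, F23B12.7 is related to human CEBPZ, which belongs to the CCAAT-binding factor proteins and has a yeast counterpart that acts in the nucleolus during maturation of the large ribosomal subunit. Worm chromosomes are holocentric, meaning that the attachment to the spindle runs along their whole length and that there is no single centromere to split them into arms. The words arm and centre refer instead to the pattern along each autosome: the centre recombines rarely and is dense in conserved and essential genes, and the arms recombine often, hold more repeats and lie closer to the nuclear envelope.

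The worms were young adult hermaphrodites of strain OP429, grown at 20 °C. The strain has the genotype unc-119(ed3) III and carries wgIs429, a bombarded transgene for F23B12.7 joined to a TY1, GFP and 3xFLAG tag with unc-119(+) as rescue marker. The labels list no change to the native F23B12.7 gene and name a single transgenic line, so both ChIP samples come from one integration. From this strain the labels give 2 ChIP and 2 input samples, fixed with 2% formaldehyde as whole worms, so that tissues cannot be told apart. There was no ChIP from untagged worms, and signal that does not need the tagged protein cannot be told apart from its binding. Each list gives a region and its PeakSeq q-value, the authors' own significance of ChIP over input. A q-value falls with read number and with width and is not a fold enrichment. Positions are on WormBase build WS180. A genome or annotation of that build was not used here, so regions are named by position, with no gene and no sequence. Read depth is unknown.

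On chromosome II the combined regions had a median width of 350 bp, with a range from 35 to 4449 bp, and covered 209272 bp or 1.37% of the span. Replicate 1 regions had a median width of 344.5 bp and covered 0.599%, and replicate 2 regions had a median width of 411 bp and covered 0.188%. The span is the distance from the first base to the furthest called end, 15232941, which stands in for the chromosome length. The combined density was 31.6 regions per Mb, second to chromosome III at 42.1 per Mb, with chromosome IV at 27.6, V at 20.9, I at 20.6 and X at 18.7. Chromosome II held the second highest density in the replicate lists as well, with 13.5 per Mb in replicate 1 and 3.87 per Mb in replicate 2. The count in the combined list was 1.21 times what the share of chromosome II in the summed spans gives (1.11 to 1.31, 95% Wilson interval, exact binomial test, adjusted p = 7.79e-05). In replicate 2 taken alone the ratio was 1.25 and did not pass (adjusted p = 0.257, exact binomial test).

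The density was far from even along the chromosome. The chromosome was divided into 3 parts of equal length, 5.08 Mb each, and a region was placed by its midpoint. The left part held 83 combined regions, the central part 199 and the right part 200, which is 16.3, 39.2 and 39.4 regions per Mb. Replicate 1 had 34, 89 and 83 regions in these parts, and replicate 2 had 5, 28 and 26. In each list the left part was lowest, and the central and right parts lay close together. Of the 283 combined regions in the outer parts, 29.3% were on the left (24.3 to 34.9%, Wilson), against 50% for equal parts (exact binomial test, adjusted p = 3.94e-11). This percentage was 29.1% in replicate 1 (adjusted p = 7.79e-05, exact binomial test) and 16.1% in replicate 2 (adjusted p = 0.0014, exact binomial test).

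**Figure D1:**
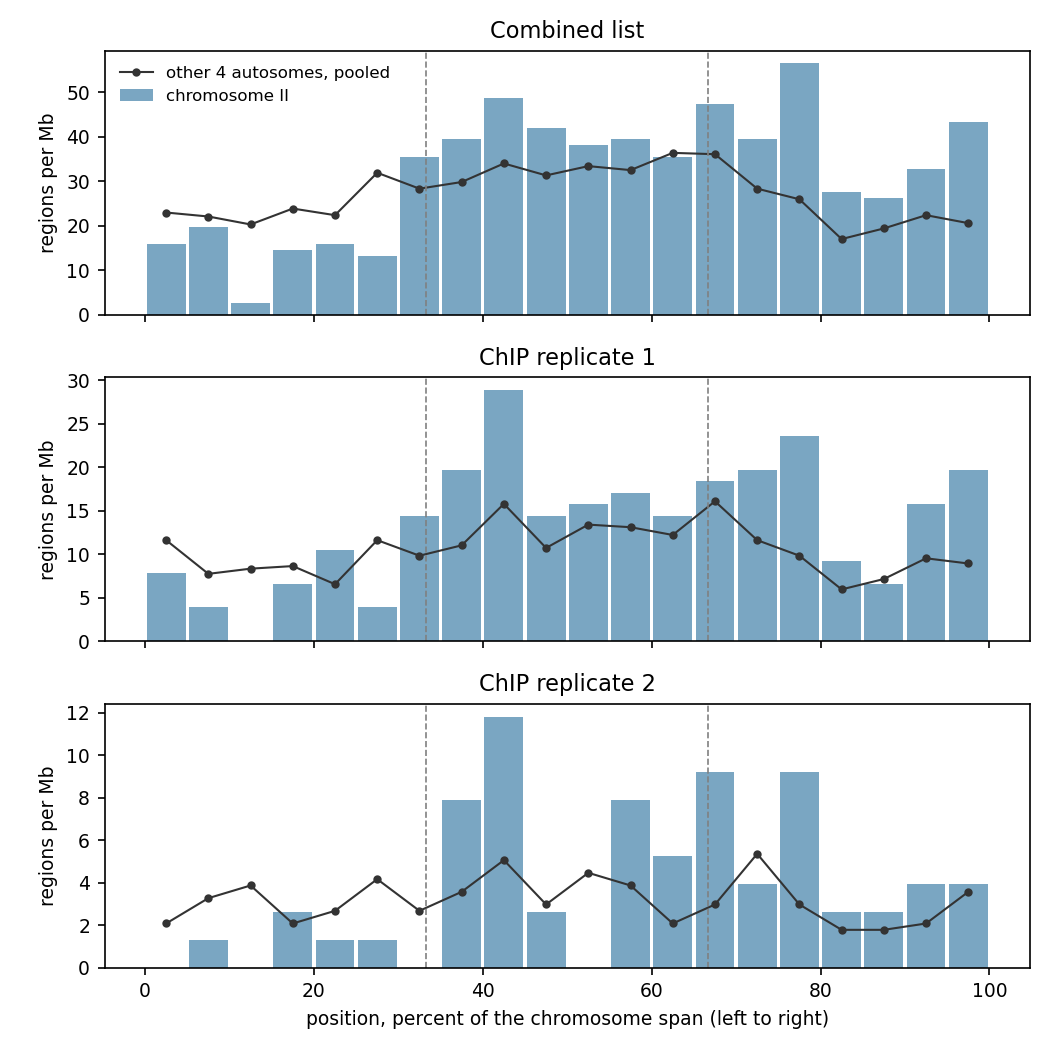
Regions per Mb in bins of 5% of the chromosome span (x axis, left to right) for the combined list and the 2 ChIP replicates. Bars show chromosome II and the line shows the other 4 autosomes pooled; dashed lines separate the left, central and right parts. On chromosome II the bins from 0 to 30% lie between 2.63 and 19.7 regions per Mb in the combined list, below the pooled value of the other 4 autosomes in every such bin.

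The other chromosomes, pooled, were even. Over the other 5 chromosomes, 646 of 1291 regions in the outer parts lay on the left (50.04%), and the difference to chromosome II was -20.7 percentage points (-26.4 to -14.5, Newcombe interval, Fisher's exact test, adjusted p = 2.09e-09). The same difference was -19.7 points in replicate 1 (adjusted p = 3.35e-04, Fisher's exact test) and -34.8 points in replicate 2 (adjusted p = 6.97e-04, Fisher's exact test). These comparisons were chosen after the values of chromosome II were seen. By chromosome, the left percentage in the combined list was 54.3% for I, 47.5% for III, 56.4% for IV, 49.6% for V and 42.5% for X. On X (36.2 to 49.1%) and IV (50.6 to 61.9%) the interval also left out 50%, to opposite sides. The interval of chromosome II, with an upper limit of 34.9%, lay below that of each other chromosome. Regions treated as independent make these p-values too small where neighbours go together. When regions within 5000 bp of each other were counted as 1, 33.01% of the outer regions of chromosome II lay on the left (adjusted p = 1.53e-05, exact binomial test). The tests against the other 5 chromosomes were not repeated in this way. Their p-values also leave out the spread between the pooled chromosomes.

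**Figure D2:**
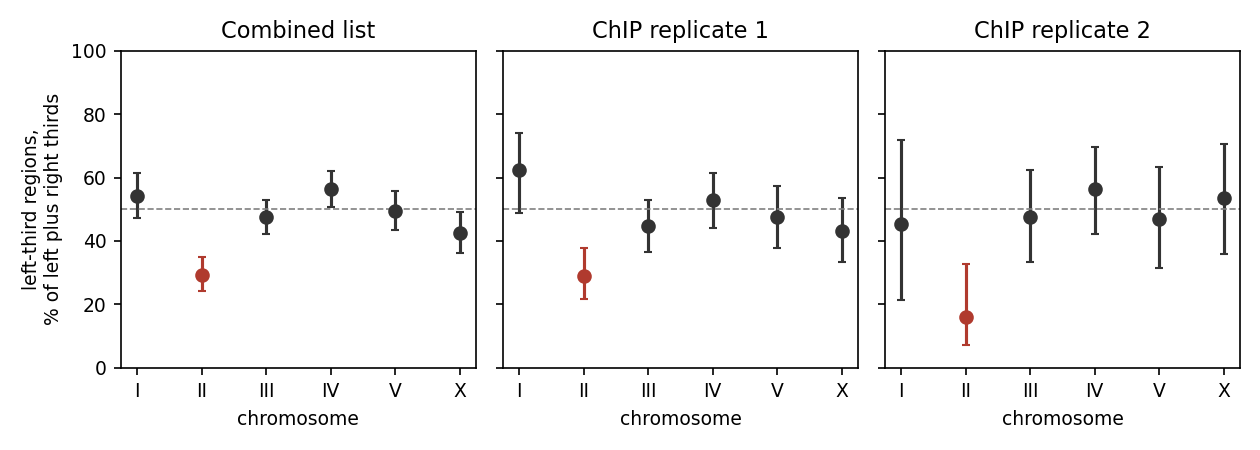
Regions in the left outer part as a percentage of the regions in both outer parts (y axis), by chromosome (x axis) and list. Points are percentages, bars are 95% Wilson intervals and the dashed line marks 50%. Chromosome II is lowest in each list, at 29.3%, 29.1% and 16.1%.

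The central share of chromosome II, 199 of 482 or 41.3% (36.98 to 45.7%), was above the 33.3% of its length (exact binomial test, adjusted p = 0.0014). It did not pass in replicate 2 alone, at 47.5% of 59 regions (adjusted p = 0.0995, exact binomial test). The pooled share on the other 4 autosomes was 40.8%, and the difference of 0.50 percentage points had an interval of -4.38 to 5.48 points (Fisher's exact test, adjusted p = 0.876). A like share hid an unlike arrangement. Centre and right were equally filled on chromosome II, with the centre at 49.9% of their 399 regions (exact binomial test, adjusted p = 1). On the other 4 autosomes the centre held 58.7% of the regions in these parts, 8.85 points more than on chromosome II (Fisher's exact test, adjusted p = 0.0039). Set against the left part, the centre held 70.6% of 282 regions on chromosome II and 57.2% on the other autosomes (difference 13.4 points, Fisher's exact test, adjusted p = 1.14e-04). These 3 comparisons were also chosen after the values were seen. In regions per Mb, the right part of chromosome II stood at 39.4, beside 16.7 for I, 39.5 for III, 21.8 for IV, 18.1 for V and 21.5 for X. Its left part, at 16.3, stood beside 19.9, 35.7, 28.2, 17.8 and 15.9 on the same chromosomes.

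In bins of 1 Mb, the 3 fullest were from 11 to 12 Mb with 56 combined regions, from 6 to 7 Mb with 44 and from 8 to 9 Mb with 42. The 3 emptiest full bins lay side by side at the left end, with 13 regions from 0 to 1 Mb, 14 from 1 to 2 Mb and 13 from 2 to 3 Mb. The count rose from 22 between 4 and 5 Mb to 40 between 5 and 6 Mb, and it stayed at 36 or above in every full bin from there to 12 Mb. The bins from 12 to 13 Mb and from 13 to 14 Mb then held 28 and 29. The right end was full again, with 36 regions from 14 to 15 Mb and 13 in the last 0.233 Mb, or 55.8 per Mb. The variance of the counts in full bins was 5.63 times their mean on chromosome II, against 1.10 (X) to 3.20 (V) elsewhere. It was also the highest of the 6 chromosomes in replicate 1, at 3.85, and in replicate 2, at 2.69. These ratios are given as a description.

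Within chromosome II, long stretches with no call were most frequent on the left. Of 481 gaps between neighbouring combined regions, 29 were longer than 100 kb. These were 16 of 83 gaps in the left part, 7 of 199 in the centre and 6 of 199 on the right. The longest, II:1522213-2204124, was 682 kb long, and no region of either replicate list lay inside it. Chromosome V was the only other chromosome with a gap of this size, at 693 kb. The next longest gaps on chromosome II were II:3567947-3808155 (240 kb, with 1 replicate 1 region inside) and II:2220264-2442352 (222 kb, with no replicate region inside). Taking the longest gap out of the length left 18.9 regions per Mb in the left part, still under 39.2 and 39.4 in the others.

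The typical gap was 15752 bp at the median, with quartiles of 4528 and 39161 bp. The median gap was 36070 bp within the left part, 12895 bp within the centre and 14800 bp within the right part. Gap lengths were more unequal on chromosome II than on any other chromosome in the combined list, with a standard deviation of 1.54 times the mean, against 1.09 (X) to 1.50 (V). Without the longest gap of each chromosome, the value for chromosome II was 1.27 and that for V, at 1.40, was higher.

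The left part was thinner than the rest of the chromosome but not empty of strong calls. Its combined regions had a median −log10 q of 5.25, beside 5.68 in the centre and 5.57 on the right, and 14 of 83 (16.9%) were in the best quartile of q-values of the whole combined list, against 109 of 399 (27.3%) in the rest of the chromosome. That difference did not pass (-10.5 points, -18.4 to -0.11, Fisher's exact test, adjusted p = 0.0723, chosen after the values were seen). Both replicates called 5 of the 83 combined regions there (6.02%), where the whole combined list has 9.46%. The best of them, II:1320332-1320888 and 557 bp wide, had q = 8.92e-25 in the combined list and ranked 7 on the chromosome. It was called at II:1320316-1320798 in replicate 1 (q = 3.37e-18) and at II:1320476-1321270 in replicate 2 (q = 1.32e-09), where it ranked 3 and 5. The others began at 2564962 (q = 3.54e-10), 2889124 (q = 1.02e-10), 3076947 (q = 4.52e-13) and 4299274 (q = 2.03e-10). All 5 replicate 2 regions of the left part overlapped a replicate 1 region, where 81.3% of all replicate 2 regions in the series do. No region of the left part was wider than 837 bp.

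Among the 20 regions of chromosome II with the lowest combined q-values, 1 was in the left part, 8 in the centre and 11 on the right. These parts held 17.2%, 41.3% and 41.5% of all combined regions of the chromosome. Of the 20, 5 were wider than 2000 bp, 12 were narrower than 1000 bp and 3 were in between. Both replicates called 18 of the 20, and replicate 1 alone called the other 2. Both called 37.4% of the best quartile of chromosome II and 9.46% of the whole combined list. The 20 were picked by q-value, with which replicate calls go together, so the count is a description. The order began with 3 broad regions. The region II:8743129-8747577 had q = 8.31e-39, II:6345824-6349037 had q = 2.05e-37, and II:10541826-10544216 had q = 3.90e-35. The narrow regions were led by II:10563017-10563666, 650 bp wide with q = 2.66e-28, which ranked 2 on the chromosome in replicate 1 (q = 2.42e-21) and 4 in replicate 2 (q = 8.98e-11).

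Of the next 4 regions in the order, 3 lay in the centre between 5.5 and 5.9 Mb, and the other, which ranked 7, was II:1320332-1320888 of the left part. The region II:5543284-5544502 (q = 2.28e-27) was called as 2 regions in replicate 1 and as 1 in replicate 2. The region II:5660859-5662068 (q = 3.20e-25) was the best of replicate 2 on this chromosome, where it had q = 3.99e-14, close to q = 1.80e-14 in replicate 1. It also kept its width, with 1210, 1108 and 1076 bp in the combined, replicate 1 and replicate 2 lists. The region II:5844519-5845148 (q = 2.93e-24) ranked 4 in replicate 1 and 2 in replicate 2. Other narrow regions of the 20 were II:11756482-11757098 (q = 3.66e-23), II:6269794-6270345 (q = 1.74e-21), II:11546839-11547532 (q = 2.10e-17) and II:11761662-11762240 (q = 2.66e-17). The 2 regions that replicate 2 did not call were II:10551646-10554099 (q = 5.35e-17) and II:12944518-12945059 (q = 1.33e-15). The last of the 20 were II:9617632-9618464 (q = 1.51e-15), II:11979571-11980393 (q = 2.39e-15), II:13834270-13834976 (q = 5.85e-15), II:8569217-8569929 (q = 1.21e-14) and II:11545130-11546571 (q = 1.35e-14).

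Broad regions, here those wider than 2000 bp, numbered 5 on chromosome II, of 18 in the combined list. Their share, 1.04% of 482, was not detectably different from the 0.608% on the other chromosomes (0.43 points, -0.30 to 1.82, Fisher's exact test, adjusted p = 0.61). The widest, II:8743129-8747577, spans 4449 bp and overlapped 2 calls in each replicate. Replicate 1 called II:8743280-8745793 (q = 8.67e-14) and II:8745998-8747578 (q = 1.32e-14), together nearly the whole width. Replicate 2 called 718 bp and 1127 bp inside it (q = 1.51e-05 and 3.92e-08). The region II:6345824-6349037 was also split in both, with a break at nearly the same place. Its replicate 1 pieces ended at 6347420 and began again at 6347637, and those of replicate 2 ended at 6347486 and began again at 6347694. No 2 regions of any list were closer than 201 bp, so such breaks are not resolved below that distance. The region II:10541826-10544216 was 1 call in each replicate, 2632 bp wide in replicate 1, where it had the lowest q-value of the chromosome (7.47e-26), and 1295 bp wide in replicate 2 (q = 7.67e-11).

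The remaining 2 broad regions also stood in the cluster described next. The region II:10547413-10549647 had q = 2.29e-20 in the combined list, ranking 11 on the chromosome, and q = 1.29e-04 in replicate 1, where it ranked 205 of 206, and q = 4.11e-05 in replicate 2, where it ranked 56 of 59. The replicate calls covered 989 and 846 bp of its 2235 bp. The region II:10551646-10554099, 2454 bp wide, was called by replicate 1 at q = 5.97e-11 and not by replicate 2.

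Of the 5 broad regions, 3 stood in 1 cluster, the fullest of the chromosome. A cluster is a run of combined regions with at most 5000 bp between neighbours. In II:10541826-10563666, 11 regions lay within 21.8 kb and covered 13094 bp, or 59.95% of that length and 6.26% of all called bases of chromosome II. Gaps inside it ran from 202 to 3734 bp. No other chromosome had a cluster with more than 7 regions, and the most bases covered by a single cluster elsewhere was 5068, on V. Replicate 1 called 6 regions in it, covering 7661 bp, and replicate 2 called 3, covering 2457 bp. The outer ends of the cluster were its strongest points in all 3 lists. The first region had −log10 q of 34.4, 25.1 and 10.1 in the combined, replicate 1 and replicate 2 lists, and the last had 27.6, 20.6 and 10.05. Between these ends stood 2 broad regions and 7 narrower ones, and the combined −log10 q of the narrower ones ran from 3.88 to 9.69.

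**Figure D3:**
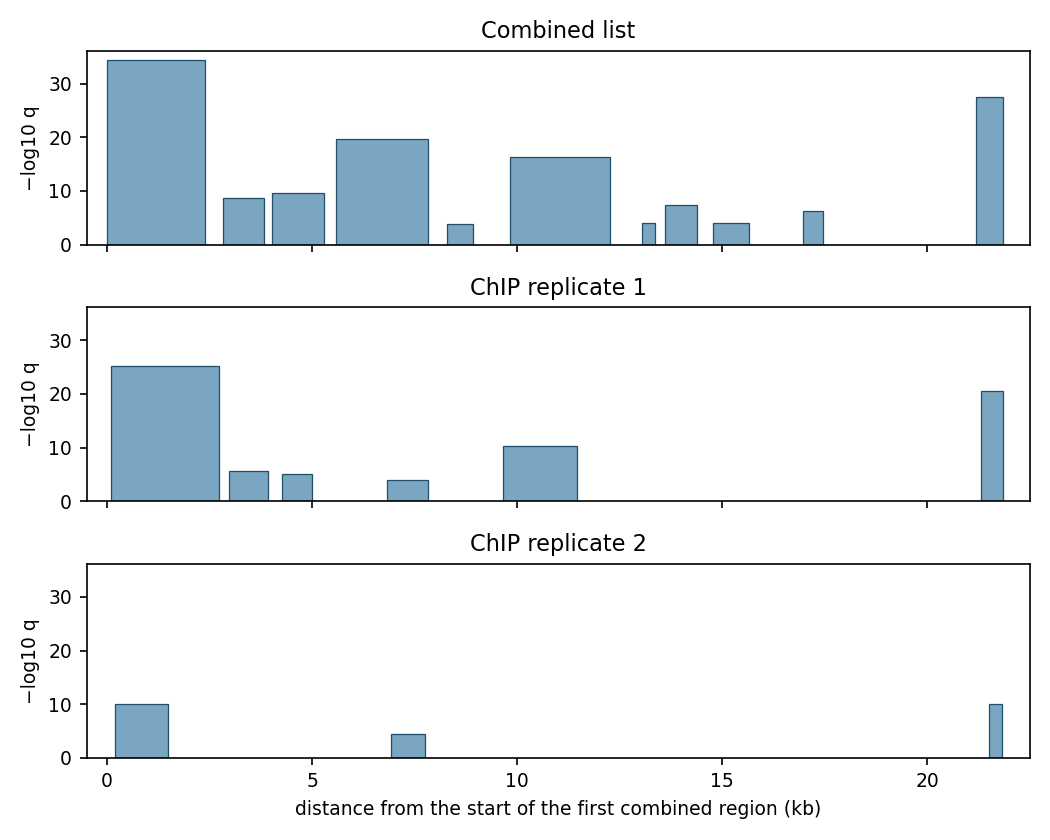
Called regions of the fullest cluster of chromosome II, by distance in kb from the start of its first combined region (x axis) and −log10 q (y axis), in the combined list and the 2 ChIP replicates. Each bar is 1 region, drawn to its width; the combined list has 11, replicate 1 has 6 and replicate 2 has 3, and the tallest bars stand at the 2 ends in each list.

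The next fullest clusters lacked such strong members. The cluster II:6355621-6377827 held 7 regions in 22207 bp, of which 3 were called in a replicate and 1 in both, with a best q of 8.43e-11. It began 6583 bp after the broad region that starts at 6345824. The cluster II:9273971-9285585 held 6 regions, 3 of them called in 1 replicate each and none in both, with a best q of 3.27e-07. In all, 86 clusters held 214 of the 482 regions (44.4%), and 67 of them were pairs. Clusters held between 28.9% (I) and 45.6% (IV) of the regions of each other chromosome. Neighbours stood within 5000 bp for 128 of 481 gaps (26.6%), against 24.1% on the other chromosomes, with no allowance for density. The difference was 2.53 points (-1.66 to 7.01, Fisher's exact test, adjusted p = 0.61). In replicate 1 its sign was turned, with 11.7% on chromosome II and 16.1% elsewhere (adjusted p = 0.322, Fisher's exact test). Clustered regions were called in a replicate for 89 of 214 (41.6%) and single ones for 122 of 268 (45.5%), a difference of -3.93 points (-12.69 to 4.96, Fisher's exact test, adjusted p = 0.61).

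Replicate support was then set beside that of the whole series. Of the 482 combined regions, 211 overlapped a region of either replicate by at least 1 bp (43.8%, 39.4 to 48.2%), where the whole combined list has 40.3%. Both replicates called 47, or 9.75% (7.41 to 12.73%), where the whole list has 9.46%. Replicate 1 alone called 153, replicate 2 alone 11 and neither 271. Replicate 1 overlapped 200 of the 482 (41.5%, whole list 38.2%) and replicate 2 overlapped 58 (12.03%, whole list 11.6%). The percentage with support from either replicate was the highest of the 6 chromosomes, but the difference to the other 5 was 4.27 points (-0.57 to 9.18) and did not pass (Fisher's exact test, adjusted p = 0.27). For support in both, the difference was 0.35 points (-2.33 to 3.55, Fisher's exact test, adjusted p = 0.853). Cutting the 3 lists at a common q of 4.51e-05, the weakest of replicate 2, gave 45.1% support on chromosome II and 41.9% elsewhere (adjusted p = 0.61, Fisher's exact test).

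Support fell with the q-value in step with the rest of the genome. In the best quartile of the combined list, 113 of 123 regions of chromosome II were called in a replicate (91.9%, 85.7 to 95.5%), beside 87.8% on the other chromosomes. The following quartiles gave 51.2%, 21.7% and 7.56% on chromosome II, beside 45.9%, 17.4% and 7.28%. Chromosome II was above the rest in each quartile, with overlapping intervals. Of the 47 regions with support from both, 46 were in the best quartile. The exception, II:9617061-9617417, has q = 1.32e-04 in the combined list and touched replicate regions that mainly cover its neighbour from 9617632. The share of regions in the best quartile was 25.5% on chromosome II and 24.9% elsewhere (0.60 points, -3.54 to 5.05, Fisher's exact test, adjusted p = 0.853).

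**Figure D4:**
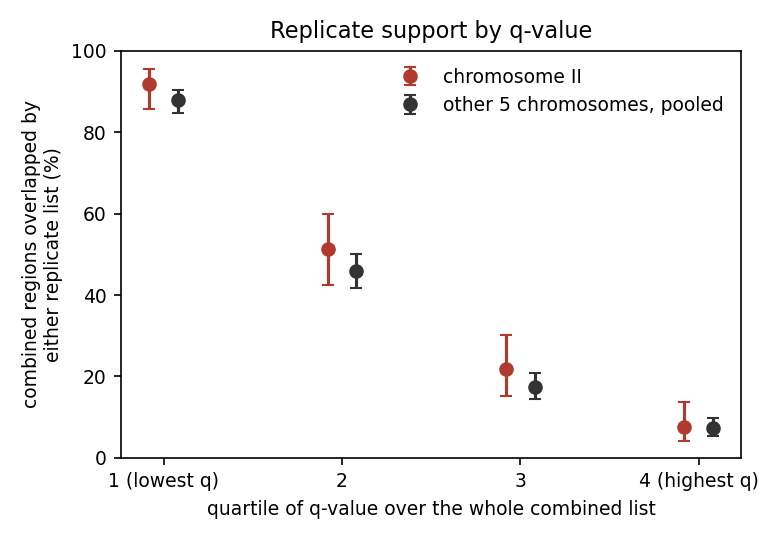
Percentage of combined regions overlapped by either replicate list (y axis) by quartile of q-value over the whole combined list (x axis). Red points are chromosome II, black points the other 5 chromosomes pooled, and bars are 95% Wilson intervals. Support falls from 91.9% to 7.56% on chromosome II and from 87.8% to 7.28% elsewhere.

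Within the chromosome, support did not differ detectably by position. It was 38.6% in the left part (28.8 to 49.3%), 46.7% in the centre (39.9 to 53.7%) and 43.0% on the right (36.3 to 49.9%). The centre minus both outer parts gave 5.04 points (-3.92 to 13.9, Fisher's exact test, adjusted p = 0.61), and with all lists cut at the common q the sign turned, to -5.72 points (adjusted p = 0.61, Fisher's exact test). The left part minus the rest gave -6.31 points (-17.2 to 5.47, Fisher's exact test, adjusted p = 0.364). By bins of 1 Mb, support ran from 14.3% between 1 and 2 Mb, where 2 of 14 regions were called, to 61.4% between 6 and 7 Mb, where 27 of 44 were. The best-quartile share was 27.1% in the centre and 24.4% in the outer parts (2.75 points, -5.05 to 10.8, Fisher's exact test, adjusted p = 0.716), and replicate 1 alone gave the opposite sign (-8.57 points, adjusted p = 0.503, Fisher's exact test).

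Seen from the replicates, 48 of the 206 replicate 1 regions overlapped replicate 2 (23.3%), where the whole list has 24.3%. The difference to the other chromosomes was -1.22 points (-7.28 to 5.61, Fisher's exact test, adjusted p = 0.853). Of the 59 replicate 2 regions, 48 overlapped replicate 1 (81.4%, 69.6 to 89.3%), where the whole list has 81.3%. The best replicate 1 regions without a counterpart were II:11634072-11635957 (q = 5.36e-13), II:12944461-12945048 (q = 5.24e-12) and II:10551490-10553285 (q = 5.97e-11). The best of replicate 2 had higher q-values, II:10033246-10033759 (q = 1.55e-07), II:6776522-6776849 (q = 3.08e-06) and II:8480965-8481272 (q = 1.12e-05). This is a description, since the lists also differ in size, with 206 and 59 regions. Their lowest q-values on chromosome II were 7.47e-26 in replicate 1 and 3.99e-14 in replicate 2. All 59 replicate 2 regions were in the combined list, beside 97.4% (X) to 100% (I, IV and V) on the other chromosomes. Of the replicate 1 regions, 201 of 206 were (97.6%), beside 94.0% (IV) to 100% (I) on the other chromosomes. The 5 missing ones began at 3682792, 4424932, 9738519, 10850722 and 12107786, with q-values from 2.89e-05 to 8.51e-05.

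The 48 regions called in both replicates could be paired 1 to 1. Replicate 1 had the lower q-value in 36 of 48 pairs (75%, 61.2 to 85.1%, exact sign test, adjusted p = 0.0027), and the median −log10 q over the pairs was 7.60 for replicate 1 against 5.57 for replicate 2. It had the lower one in 152 of 203 pairs on the other chromosomes (74.9%). The pairs that went the other way most clearly were II:14496747-14497091 in replicate 1 (q = 1.33e-07 against 3.05e-09), II:11960591-11960908 (q = 3.43e-07 against 9.16e-09) and II:4299243-4299556 (q = 8.51e-05 against 6.06e-08). These 3 were picked after their values were seen. The order of the pairs was partly shared, with a Spearman's rho between the replicates' −log10 q of 0.45 across 48 pairs, and 0.50 across the 203 pairs elsewhere. The pairs come from the same 2 libraries, so these are descriptions only.

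**Figure D5:**
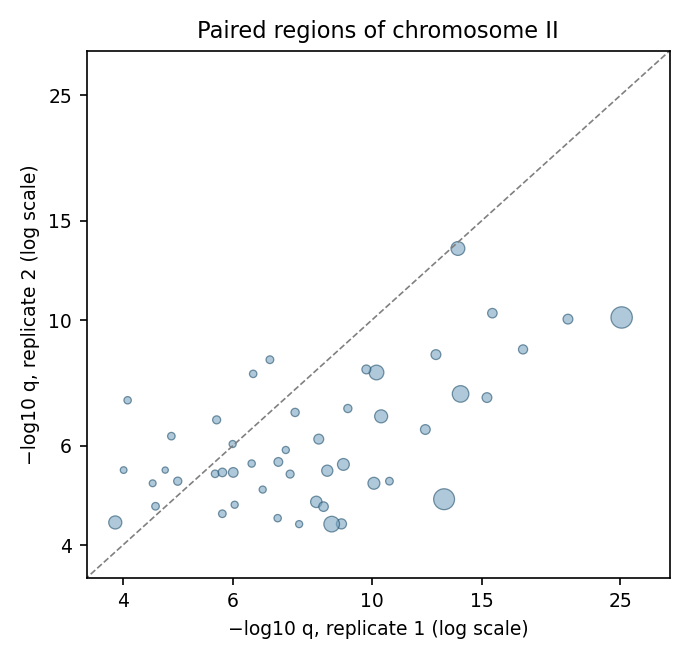
The 48 regions of chromosome II called in both replicates, by −log10 q in replicate 1 (x axis) and in replicate 2 (y axis), both on log scales. Point area follows the width in replicate 1 and the dashed line marks equal values. 36 of the 48 points lie below the line, on the side of a lower q-value in replicate 1.

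The paired calls stood at nearly the same place. Their midpoints were 30.5 bp apart at the median, and within 100 bp for 36 of the 48. The largest shifts, replicate 2 minus replicate 1, were 628 bp for the call II:11978927-11980337 in replicate 1, where replicate 2 called 225 bp at its right end, and -569.5 bp for the broad region at 10541922. Width did not differ detectably at the same positions, with replicate 2 wider in 20 pairs, replicate 1 wider in 27 and 1 pair equal (exact sign test, adjusted p = 0.61). The median width of paired calls was 433 bp in replicate 1 and 416 bp in replicate 2, and the median of the differences was -21 bp (replicate 2 minus replicate 1), beside -20 bp on the other chromosomes. Where both replicates called a combined region, the combined list gave the lowest of the 3 q-values in 46 of 47 cases.

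Widths rose with significance on chromosome II. Across regions, width and −log10 q had a Spearman's rho of 0.56 in its 482 combined regions, 0.50 in replicate 1 and 0.42 in replicate 2. The median width fell from 463 bp in the best quartile to 377, 305 and 253 bp in the following ones. On the other chromosomes these medians were 535, 379, 335.5 and 300.5 bp.

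The 3 combined regions with the lowest q-values that neither replicate called were II:5377456-5378495 (1040 bp, q = 2.92e-12), II:12738313-12739521 (1209 bp, q = 3.90e-11) and II:7072504-7073553 (1050 bp, q = 4.87e-11). All 3 are wider than 1000 bp, as are 20 of the 482 regions. Of these 20 regions, 11 were called in a replicate (55.0%), beside 43.8% of all 482. On the other chromosomes 73 of 101 such regions were (72.3%), beside 39.5% of all 2139. Over the 10 regions of chromosome II in the best quartile that neither replicate called, the width ran from 518 to 1272 bp. The 65 such regions elsewhere ran from 265 to 1836 bp.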

How the data were processed

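Per the labels' protocols, worms were fixed, sonicated and precipitated with anti-GFP antibody, with 10% of the lysate kept as input. Regions were called with PeakSeq on WormBase WS180, per the file headers and contents. The authors deposited 1 q-value per region, with no read counts or depth. For the aligner, versions, q limit and making of the combined list, nothing is stated in the sources used here. Samples were grouped by title, and input was read only through the authors' calls. Nothing states that the replicates are separate cultures, so their spread may be technical.

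Regions were placed by midpoint and counted as shared at an overlap of 1 bp or more. Shares were compared by two-sided exact binomial, sign or Fisher's exact tests (Python 3.11.15, SciPy 1.17.1, statsmodels 0.14.6), with Benjamini-Hochberg adjustment over 15 tests, and over 11 more for comparisons chosen after seeing the values, and a threshold of 0.05. These tests treat regions as independent and intervals (95%, Wilson or Newcombe) cover counting error only. Chromosome spans end at the furthest called region. Named are the 20 regions of lowest q, those wider than 2000 bp, the best 5 of each replicate, the best 3 unmatched regions of each list, the 3 fullest clusters, the 3 longest gaps and the extreme bins. Members and tests were chosen with earlier results of these data known. The test of left against right was tested on simulated data. The simulated regions were placed independently of each other, so this check does not cover clustered regions. Alternatives covered other overlaps, q limits, distances and lists.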

Additional observations from a re-analysis of the deposited data

How the results depend on the processing

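The 15 results had 75 alternatives, 71 planned with earlier results of these data known and 4 added after seeing the values. Of the 75, 57 kept direction and side of the threshold, 2 lost the call and 16 changed sign. All 16 sign changes are in results that passed the test neither before nor after. The 2 lost calls came with replicate 2 alone, which has 59 regions on chromosome II: with 1 replicate list at a time, the ratio to length ranged from 1.25 to 1.30 and the central share from 43.2% to 47.5%. The lower count in the left than in the right outer part of chromosome II passed under each of its 5 alternatives. The central difference to the other autosomes turned to -0.0165 points with a centre of 50% of the span and to -0.10 with close regions counted as 1. Support in both replicates turned to -0.72 with midpoints within 100 bp, -0.20 in the better-scored 50% of the list and -0.17 at a common q. Replicate 1 regions found in replicate 2 turned to 0.80 without chromosome III. The broad share turned to -0.57 for regions wider than 1000 bp and ranged from -0.80 to 0.13 over single replicate lists. The best-quartile share turned to -0.90 for the best 10%. Close neighbours turned to -0.27 in the better-scored 50% and ranged from -4.37 to -0.42 over single replicate lists. Support at the centre turned to -5.72 at a common q. The best-quartile share at the centre ranged from -8.57 to 6.34 over single replicate lists. Support in clusters ranged from -3.19 to 4.41 with 1 replicate at a time and turned to 0.12 at a common q. The cause of these changes was not tested. No paired analysis was possible because no result compares ChIP with input, the groups that share replicate numbers; the sign tests pair regions between the ChIP replicates, not samples between groups. Differences of a few points between chromosomes, such as 4.27 points in replicate support (-0.57 to 9.18), did not pass with lists of this size. Read depth is unknown.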

Other observations

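In the best quartile of the combined list on chromosome II, 7 of the 17 regions wider than 1000 bp were called in neither replicate (41.2%), against 3 of the 106 narrower ones (2.83%). These shares are a description, since the pattern was noticed in these same regions. It was then looked for on the other 5 chromosomes, where the shares were 17 of 81 (20.99%) and 48 of 452 (10.6%), a difference of 10.4 points (2.27 to 20.8, Fisher's exact test, adjusted p = 0.0238). Chromosome II did not differ detectably from the rest in the share for wide regions (20.2 points, Fisher's exact test, adjusted p = 0.144). These regions were picked by q-value, which falls with width, so the tests hold within the best quartile only. Over all q-values the direction turned. On chromosome II, 55.0% of regions wider than 1000 bp were called in a replicate, beside 43.8% of all its regions. Elsewhere 72.3% were, beside 39.5% of all regions. The best-quartile regions in neither replicate had a median width of 1120 bp on chromosome II, beside 444 bp for the supported ones, and of 635 bp on the other chromosomes, beside 521.5 bp.

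The 5 regions of chromosome II wider than 2000 bp were all called in at least 1 replicate. All 5 were in the best quartile, where 91.9% of the regions of chromosome II were called, so the count is a description. In that quartile, unsupported regions measured up to 1272 bp on chromosome II and up to 1836 bp elsewhere. Examples of wide unsupported regions are II:10445346-10446617 (q = 7.39e-11) and II:6235427-6236619 (q = 1.55e-10), chosen after their values were seen.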
